A study of Homo sapiens with 6 samples.

Results

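Chromatin modifying and remodelling genes were examined in MDA-MB-231 cells, an established line from a breast cancer that lacks hormone receptors and HER2 amplification, after exposure to nitidine chloride (NCD), a plant alkaloid. The set held 59 of the 63241 Ensembl genes in the count files. Its members were taken from a list of histone methyltransferases, demethylases, acetyltransferases and deacetylases, remodelling ATPases and DNA methylation enzymes. The list was chosen with earlier results of these data known, and its genes were matched to the files by gene symbol. All 59 were found and all passed the filter on low counts. SUZ12 and EED are subunits of a methyltransferase complex and carry no catalytic site of their own.

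Wild-type cells received 5 μM NCD or, as vehicle control, 0.1% DMSO, and RNA was taken after 24 h. There were 3 libraries in each group, and no other genotype, dose or time was sampled. All libraries came from a single cell line in culture, and the labels do not say whether replicates were separate cultures, so the p-values measure the spread between these libraries only. For NCD replicates 2 and 3 the description text carries a different line number from the cell line field, and the field was followed.

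Enzymes of this kind write, erase and read marks on histones and DNA. Methylation of histone H3 at lysine 4 (H3K4) marks active promoters and enhancers, methylation at lysine 36 (H3K36) marks transcribed gene bodies, and methylation at lysines 9 and 27 (H3K9, H3K27) marks silent chromatin. Acetylation opens chromatin, deacetylases reverse it, and remodelling ATPases slide or evict nucleosomes. Many of these enzymes come in families of close relatives whose genes differ widely in length. The length used below is the gene span, the distance on the genome from the first to the last annotated base of the gene, introns included.

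The libraries held 18223594 to 19410833 counts with DMSO and 18232169 to 21629653 with NCD. Of the 8 markers of the line, 7 (VIM, CD44, AXL, CAV1, TGFBI, MSN and LGALS1) had at least 3926 counts in every library and S100A4 had 265 to 379, while ESR1, PGR and CDH1 had at most 7. KRT8, listed as low in this line, was not low, with 6846 to 14508 counts. The other luminal markers had more counts with NCD. ERBB3 had 69 to 71 counts with DMSO and 526 to 641 with NCD, and FOXA1 0 to 7 against 30 to 41. EPCAM had 45 to 51 against 73 to 93. GATA3 had 98 to 118 against 142 to 166, which did not pass the edgeR test used below (adjusted p = 0.0729). Over the whole lists, the 8 markers of the line summed to 7320 to 7740 CPM (counts scaled to a common library size with TMM factors) with DMSO and 4520 to 4930 CPM with NCD, and the 8 luminal markers to 401 to 461 against 574 to 675. The leukocyte markers PTPRC, CD3E and NKG7 had at most 1 count in any library, and CD68 had 1433 to 2097, so that the 6 leukocyte markers summed to 81.5 to 90.9 CPM with DMSO and 86.6 to 95.9 CPM with NCD. Among 6 endothelial and fibroblast markers the summed level was 3.56 to 4.71 CPM with DMSO and 13.4 to 16.1 CPM with NCD, most of it from COL1A1, with 41 to 65 counts against 246 to 317. DMSO replicate 2 and NCD replicate 3 stood apart from their groups for these genes. DMSO replicate 2 had the highest CPM of its group in 48 of the 59 members, against 45.1% of all tested genes. NCD replicate 3 was the highest of its group in 41 members, against 41.6% of all tested genes. Their part in the results was not tested beyond leaving each library out in turn.

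Chromatin genes fell with NCD more often than they rose. Genes with an adjusted p below 0.05 in edgeR's quasi-likelihood test that moved by more than 1 on the log2 scale were called differentially expressed. Of the members, 19 of 59 (32.2%) were lower with NCD, against 17.4% of all 15295 tested genes, and 3 (5.08%) were higher, against 13.5%. Without the fold threshold 33 members (55.9%) were lower, against 34.1% of all tested genes, 11 (18.6%) were higher, against 35.3%, and 15 did not pass the test, which 69.3% of all tested genes passed in one direction or the other. The median log2 fold change was -0.31 over the members and 0.04 over all tested genes. The groups did not overlap in 37 members that were lower with NCD, against 35.3% of all tested genes, and in 14 that were higher, against 37.2%. In bulk RNA, less RNA per cell and fewer cells of a kind cannot be told apart, and every value is relative to the other RNAs of the library. Scaling by library totals in place of TMM shifted the median of all tested genes to 0.23 and gave 15 members lower and 6 higher. Without the fold threshold, the number of members lower ran from 29 to 40 over the settings named below.

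**Figure D1:**
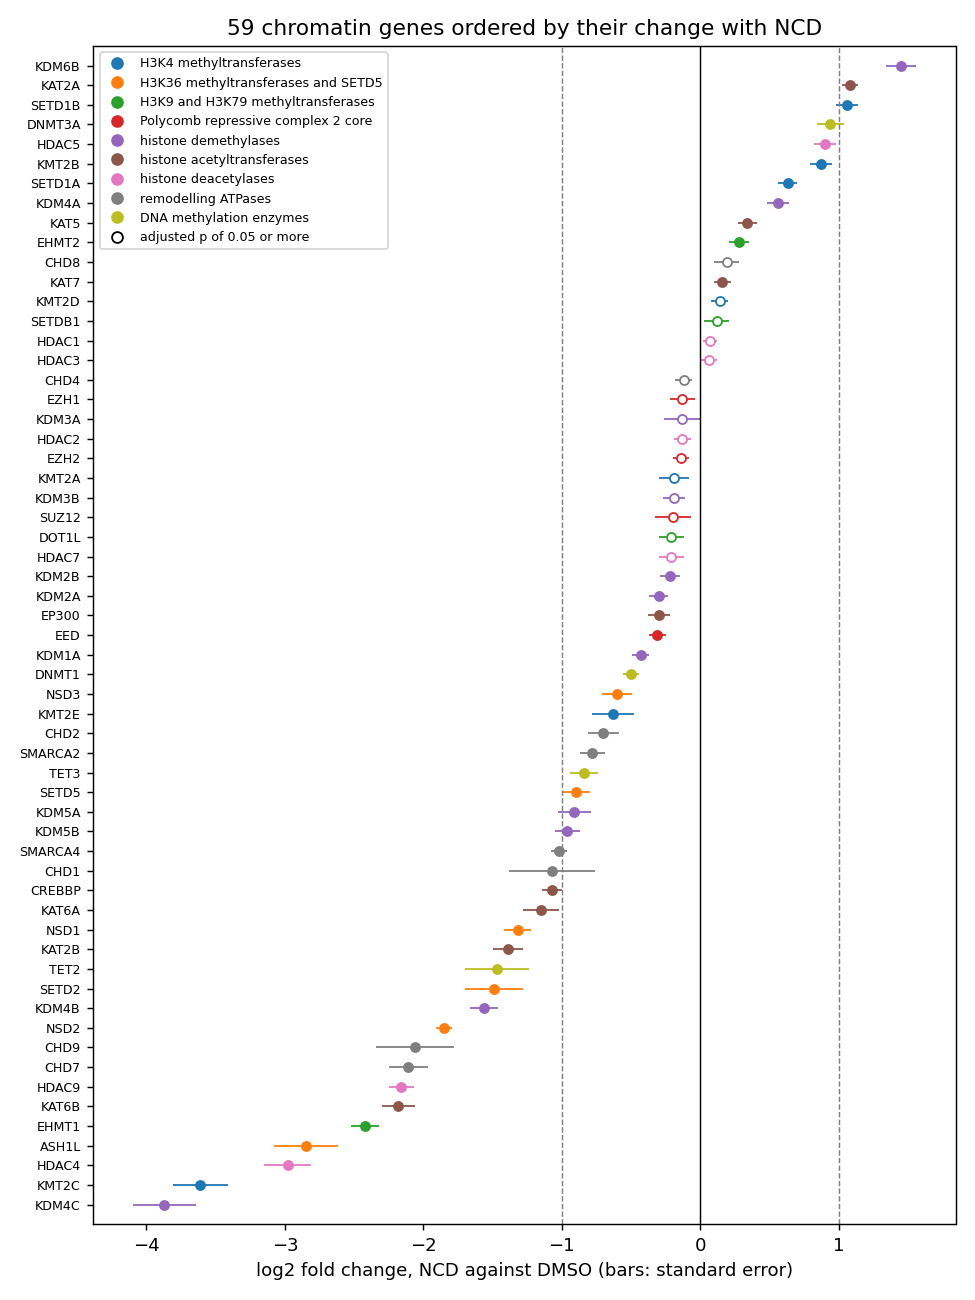
Log2 fold change of each of the 59 chromatin genes with NCD against DMSO (x axis), ordered from the highest to the lowest, with the standard error as bars and colour by class. Open points did not pass an adjusted p of 0.05, and dashed lines mark an absolute log2 fold change of 1. KDM6B stands highest at 1.45 and KDM4C lowest at -3.87.

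The H3K4 methyltransferases moved in both directions, in shares near those of all tested genes. Of the 7, 3 (42.9%) were higher, against 35.3% of all tested genes, and 2 (28.6%) were lower, against 34.1%. The other 2 did not pass the test. KMT2C and KMT2D, which place H3K4 methylation at enhancers, went apart. KMT2C (ENSG00000055609, chromosome 7, 152134922 to 152436005, minus strand, GRCh38 in GENCODE release 29) had 36.7, 53.6 and 42.4 CPM in the DMSO libraries and 3.15, 2.95 and 4.71 CPM in the NCD libraries. Every NCD library lay far below every DMSO library, a log2 fold change of -3.61 (SE, the standard error, 0.20, adjusted p = 5.23e-07), which left 8.17% of the DMSO level. Copies of part of this gene exist elsewhere in the genome, so its reads are harder to assign. KMT2D had a log2 fold change of 0.14 (SE 0.06, adjusted p = 0.0605). SETD1B, which with SETD1A makes the bulk of H3K4 trimethylation, had 16.5, 17.1 and 15.2 CPM with DMSO and 33.3, 34.6 and 34.2 CPM with NCD. This was a log2 fold change of 1.06 (SE 0.08, adjusted p = 3.28e-06), and without DMSO replicate 3 it was 0.98, just under the fold threshold. SETD1A and KMT2B, which acts at promoters, also rose, by 0.63 and 0.87 on the log2 scale. KMT2A, the relative of KMT2B, had a log2 fold change of -0.19 and did not pass the test. KMT2E, a SET domain protein, fell from 30.4, 43.8 and 32.9 CPM to 21.8, 20.6 and 26.7 CPM, a log2 fold change of -0.63 (SE 0.15, adjusted p = 0.00472).

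All 6 members of the H3K36 group were lower with NCD, 4 of them past the fold threshold, with a class median of -1.40. These are long genes, with a median span of 130 kb, and of all tested genes of at least 100 kb 82.6% were lower and 67.0% past the fold threshold, against 34.1% and 17.4% of all tested genes. ASH1L (ENSG00000116539, chromosome 1, 155335268 to 155562807, minus strand) fell most, from 34.6, 52.9 and 39.7 CPM to 4.28, 5.38 and 7.97 CPM. Its log2 fold change was -2.85 (SE 0.23, adjusted p = 5.3e-06). NSD2 (ENSG00000109685, chromosome 4, 1871424 to 1982207, plus strand), which places H3K36 dimethylation, stood at 38.6 CPM per kb of coding transcript with DMSO, in a set that ran from 1.07 for HDAC4 to 51.9 for HDAC1. It had 313, 348 and 331 CPM with DMSO and 93.5, 90.7 and 91.3 CPM with NCD, and the small spread made its fall one of the clearest of the set (log2 fold change -1.85, SE 0.06, adjusted p = 3.07e-08). SETD2, the main enzyme of H3K36 trimethylation, had a log2 fold change of -1.49 (SE 0.21), and NSD1 of -1.32 (SE 0.10). The smallest falls were those of SETD5, a SET domain protein, at -0.90, and of NSD3 at -0.60. NSD3 had 72.4, 82.5 and 71.9 CPM with DMSO and 47.9, 43.5 and 57.7 CPM with NCD.

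Among the enzymes of H3K9 and H3K79, the partner enzymes EHMT1 and EHMT2, which mono- and dimethylate H3K9 as a heterodimer, moved in opposite directions. EHMT1 (ENSG00000181090, chromosome 9, 137618963 to 137870016, plus strand) had 32.8, 36.2 and 35.4 CPM with DMSO and 6.90, 6.67 and 5.87 CPM with NCD, a log2 fold change of -2.42 (SE 0.10, adjusted p = 8.14e-08). EHMT2 had 44.9, 48.4 and 41.9 CPM with DMSO and 54.6, 55.7 and 54.2 CPM with NCD. Its groups did not overlap either, but the rise was small (log2 fold change 0.28, SE 0.07, adjusted p = 0.00725), and without DMSO replicate 3 it did not pass the test (log2 fold change 0.20, adjusted p = 0.0612). SETDB1, which trimethylates H3K9, had 25.3, 30.8 and 28.9 CPM with DMSO and 29.1, 31.1 and 32.1 CPM with NCD, and these groups overlapped (adjusted p = 0.28). DOT1L, the H3K79 methyltransferase, had a log2 fold change of -0.21 (adjusted p = 0.055).

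The core of Polycomb repressive complex 2, which methylates H3K27, had the narrowest range of log2 fold changes of the 9 classes, from -0.31 to -0.13. By class median, at -0.17, it was not the least changed. The H3K9 and H3K79 enzymes had a median of -0.04, the deacetylases of -0.13 and the H3K4 methyltransferases of 0.14. The catalytic subunit EZH2 had 91.0, 96.6 and 96.6 CPM with DMSO and 83.2, 83.1 and 91.2 CPM with NCD. EZH2, its alternative EZH1 and SUZ12 did not pass the test, and their groups overlapped. With library totals their log2 fold changes were slightly above 0. EED, which binds the H3K27 mark, fell slightly, from 67.2, 70.6 and 71.9 CPM to 54.9, 55.9 and 58.1 CPM (log2 fold change -0.31, SE 0.06, adjusted p = 0.00181), a fall that did not pass the test with library totals (adjusted p = 0.166).

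KDM6B, which removes H3K27 methylation, rose most of all members. It (ENSG00000132510, chromosome 17, 7839904 to 7854796, plus strand) had 8.32, 10.2 and 10.5 CPM with DMSO and 27.1, 27.7 and 24.3 CPM with NCD, so the groups lay well apart. The log2 fold change was 1.45 (SE 0.11, adjusted p = 4.04e-06), which is 2.73-fold. KDM4C (ENSG00000107077, chromosome 9, 6720863 to 7175648, plus strand), a demethylase of H3K9 and H3K36, fell most of all members. Its counts were 136, 182 and 160 with DMSO and 11, 17 and 11 with NCD, or 8.20, 10.3 and 8.77 CPM against 0.481, 0.880 and 0.513 CPM. The log2 fold change was -3.87 (SE 0.23, adjusted p = 7.47e-07), and few counts remained with NCD. Its relative KDM4B fell from 19.8, 22.7 and 19.9 CPM to 7.38, 6.83 and 6.90 CPM (log2 fold change -1.56, SE 0.10, adjusted p = 1.4e-06). The third relative, KDM4A, was at 26.3 ± 1.30 CPM with DMSO and 38.6 ± 1.69 CPM with NCD (SD, n = 3), and so rose by 0.56 on the log2 scale. The H3K4 demethylases KDM5A and KDM5B fell alike, with log2 fold changes of -0.91 (SE 0.12) and -0.96 (SE 0.09). KDM1A, the flavin-dependent H3K4 demethylase, fell to a log2 fold change of -0.43. KDM2A and KDM2B, demethylases of H3K36 that bind CpG-rich DNA, had log2 fold changes of only -0.30 and -0.22, and with library totals KDM2A did not pass the test (-0.10, adjusted p = 0.268). KDM2B did not pass the test when any of 4 single libraries was left out. It also did not pass with the replicate block, with library totals or without the low-count filter. The H3K9 demethylases KDM3A and KDM3B did not pass the test.

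All 8 acetyltransferases passed the test, as did 69.3% of all tested genes. Of them 3 (37.5%) were higher, against 35.3% of all tested genes, and 5 (62.5%) were lower, against 34.1%. KAT2A (ENSG00000108773, chromosome 17, 42113108 to 42121358, minus strand), the acetyltransferase of the SAGA complex, had 47.7, 45.7 and 47.1 CPM with DMSO and 97.0, 102 and 99.0 CPM with NCD. The replicates were close and the log2 fold change was 1.08 (SE 0.06, adjusted p = 4.64e-07). Its relative KAT2B took the opposite course, from 50.1, 53.5 and 45.9 CPM to 19.1, 16.3 and 21.4 CPM (log2 fold change -1.39, SE 0.11, adjusted p = 4.44e-06). Of the MYST family enzymes, KAT6B fell most, from 22.1, 26.5 and 23.1 CPM to 5.16, 4.76 and 5.87 CPM, a log2 fold change of -2.18 (SE 0.12, adjusted p = 5.03e-07). The log2 fold changes of KAT6A, KAT5 and KAT7 were -1.15, 0.34 and 0.16. KAT7 passed the test by a narrow margin (adjusted p = 0.0375) and did not pass it when any single library was left out. CREBBP and EP300, the coactivators that acetylate H3K27, both fell, with log2 fold changes of -1.07 and -0.30, the latter not past the test with library totals (-0.11, adjusted p = 0.318). CREBBP and KAT6A dropped under the fold threshold with library totals, at -0.87 and -0.95.

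Among the deacetylases, HDAC1, HDAC2 and HDAC3 of class I did not pass the test and the class IIa enzymes split. HDAC1 had 111, 108 and 112 CPM with DMSO and 116, 114 and 118 CPM with NCD, and HDAC3 had 91.4, 91.1 and 92.5 CPM with DMSO and 98.6, 95.0 and 93.1 CPM with NCD. These were the smallest log2 fold changes of the set, 0.07 and 0.06, with standard errors of 0.05 and 0.06, and neither passed the test (adjusted p = 0.259 and 0.356), although the groups did not overlap. With library totals both were higher and passed the test, at 0.27 and 0.26. HDAC4 (ENSG00000068024, chromosome 2, 239048168 to 239401654, minus strand) fell from 9.04, 10.8 and 8.93 CPM to 1.18, 1.03 and 1.40 CPM, a log2 fold change of -2.98 (SE 0.17, adjusted p = 6.47e-07). HDAC9 (ENSG00000048052, chromosome 7, 18086949 to 19002416, plus strand) fell from 78.4, 87.2 and 76.6 CPM to 18.5, 16.3 and 19.4 CPM, a log2 fold change of -2.16 (SE 0.09, adjusted p = 1.03e-07). HDAC5 rose, from 18.8, 19 and 18.9 CPM to 37.4, 35.5 and 32.6 CPM, with no overlap (log2 fold change 0.90, SE 0.08, adjusted p = 1.08e-05). HDAC7 had a log2 fold change of -0.21 and did not pass the test.

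Of the 8 remodelling ATPases 6 (75%) were lower and the other two did not pass the test. The class has a median span of 123 kb, and 34.1% of all tested genes and 82.6% of those of at least 100 kb were lower. CHD7 fell from 15.9, 19 and 15.0 CPM to 3.41, 3.88 and 4.24 CPM (log2 fold change -2.11, SE 0.14, adjusted p = 1.41e-06). CHD9 fell from 40.3, 73.3 and 56.9 CPM to 10.7, 10.6 and 19.7 CPM, with a wide spread in both groups (log2 fold change -2.06, SE 0.28, adjusted p = 0.000151). CHD8, of the same subfamily, had a log2 fold change of 0.19 and did not pass the test. CHD2 fell less, from 99.1, 125 and 105 CPM to 60.3, 64.6 and 77.6 CPM, a log2 fold change of -0.70. CHD1, which moves along active genes, was called at -1.07, but NCD replicate 3 (53.6 CPM) lay above DMSO replicate 1 (50.7 CPM). Leaving out DMSO replicate 2 gave CHD1 a log2 fold change of -0.89, and leaving out NCD replicate 1 or 2 gave -0.87 or -0.92, all under the fold threshold. The SWI/SNF ATPases SMARCA4 and SMARCA2 fell with log2 fold changes of -1.02 (SE 0.06) and -0.78 (SE 0.09), and SMARCA4 lay at -0.99 without DMSO replicate 2. CHD4, the ATPase of the NuRD corepressor, had 215, 236 and 216 CPM with DMSO and 203, 197 and 211 CPM with NCD, a log2 fold change of -0.12 that did not pass the test (adjusted p = 0.0961).

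The DNA methylation enzymes DNMT1 and DNMT3A went apart. DNMT3A (ENSG00000119772, chromosome 2, 25227855 to 25342590, minus strand), which sets new DNA methylation, rose from 14, 16.7 and 17.4 CPM to 30.6, 31.1 and 30.7 CPM. Its log2 fold change was 0.94 (SE 0.10, adjusted p = 2.37e-05), a 1.92-fold rise just under the fold threshold. DNMT1, which copies methylation after replication, was at 262 ± 11.1 CPM with DMSO and 186 ± 2.02 CPM with NCD (SD, n = 3), and so fell to a log2 fold change of -0.50. TET2 and TET3, which oxidise methylated cytosine, both fell. TET2 had 11, 17.1 and 13.8 CPM with DMSO and 4.02, 4.29 and 6.85 CPM with NCD (log2 fold change -1.47, SE 0.23, adjusted p = 0.000387). TET3 had 23.0, 27.3 and 26.3 CPM with DMSO and 14, 13.9 and 15.0 CPM with NCD (log2 fold change -0.84, SE 0.10, adjusted p = 4.82e-05).

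**Figure D2:**
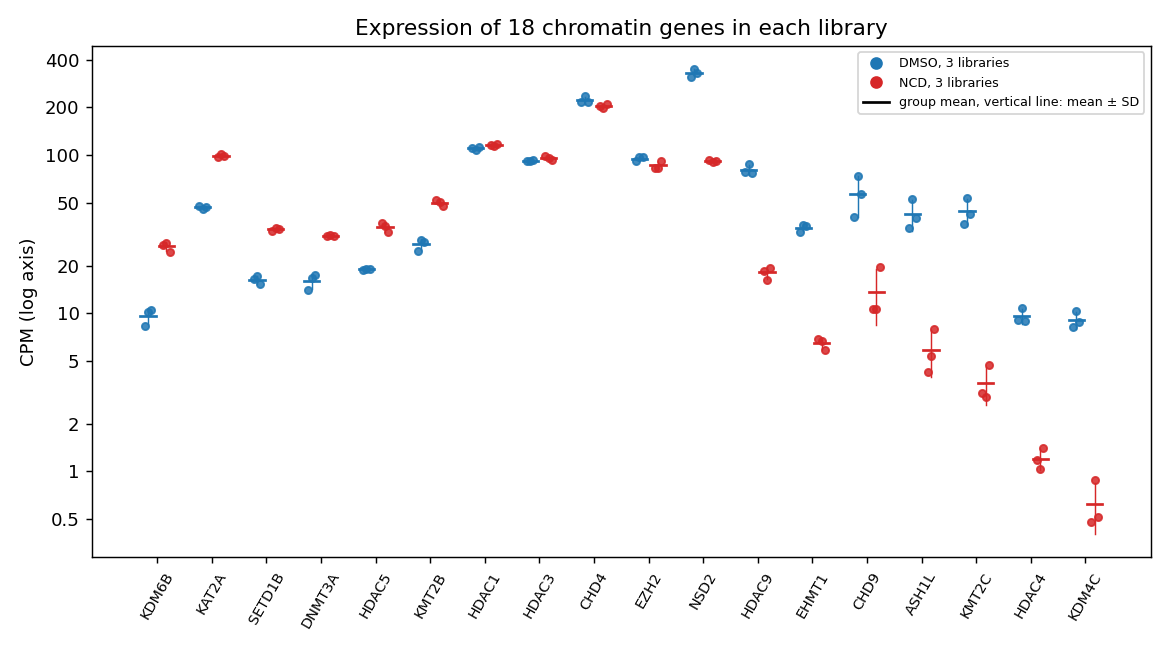
CPM (log axis) of 18 chromatin genes in each of the 3 DMSO and 3 NCD libraries, with group means as horizontal lines and mean ± SD as vertical lines. From KDM6B to KMT2B on the left the NCD points lie above the DMSO points, HDAC1, HDAC3, CHD4 and EZH2 differ little, and from NSD2 to KDM4C the NCD points lie below.

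Some of these counts are uncertain because genes overlap on the genome. Of the members, 19 overlap an annotated gene with at least 10 counts in some library, and 26 overlap a gene on their own strand. The most abundant neighbours were CERS2 over SETDB1 with up to 7334 counts, AP3D1 over DOT1L with up to 3133 and RNASEH2C over KAT5 with up to 2001. The sources used here do not say whether the counting used strand. In 31 members the expected count was not whole in at least 1 library, by more than 0.001, which is how shared reads appear in these files. Of the 22 differentially expressed members, ASH1L alone overlaps a gene that reached 10 counts, ASH1L-AS1 with up to 25.

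Each change was then set against the gene span. The members were long genes, with a median span of 88.3 kb against 29 kb for all tested genes, and 27 of them (45.8%) spanned at least 100 kb, against 17.8% of tested genes. Across the 59 members the log2 fold change fell with span (Spearman correlation -0.863, across genes of the same 6 libraries, a description only). For all 14692 tested genes with an annotated span the same correlation was -0.503. Of the 6 members under 25 kb, all had a log2 fold change above 0, with a median of 0.60. The median was 0.13 for the 10 members of 25 to 50 kb, -0.20 for the 16 of 50 to 100 kb, -0.91 for the 13 of 100 to 150 kb and -2.14 for the 14 longer ones. All tested genes in these ranges had medians of 0.37, 0.14, -0.31, -1.02 and -2.06. Of the 27 members of at least 100 kb, 18 (66.7%) were differentially expressed and lower, against 67.0% of all tested genes that long, of which 68.9% were called in either direction and 1.91% higher. Without the fold threshold 26 of the 27 (96.3%) were lower, against 82.6% of such genes, with 87.3% passing in either direction. Of the 32 shorter members 1 (3.12%) was differentially expressed and lower, against 7.01% of shorter genes, and 3 (9.38%) were differentially expressed and higher, against 15.8%. Without the fold threshold 7 of them (21.9%) were lower and 10 (31.2%) higher, against 24.3% and 42.3% of shorter genes, of which 66.6% passed in either direction. With the fold threshold, the share of long chromatin genes that were lower was thus close to that of all tested long genes. Without it their share was larger, at 96.3% against 82.6%.

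Other features, as measured here, followed the change less closely. The Spearman correlation with the log2 fold change over the members was -0.791 for the longest intron, -0.568 for the first intron and -0.385 for the length of the longest annotated coding transcript. It was 0.471 for the GC content of that transcript, -0.144 for its number of exons and 0.024 for the mean CPM with DMSO. Introns were also taken from that 1 transcript, which need not represent the gene. For SMARCA2, which spans 213.3 kb, it had 4 exons and a longest intron of 11.2 kb. The intron and exon correlations are therefore rougher than that of span. These features are not independent, since span and transcript length had a Spearman correlation of 0.512 with each other.

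**Figure D3:**
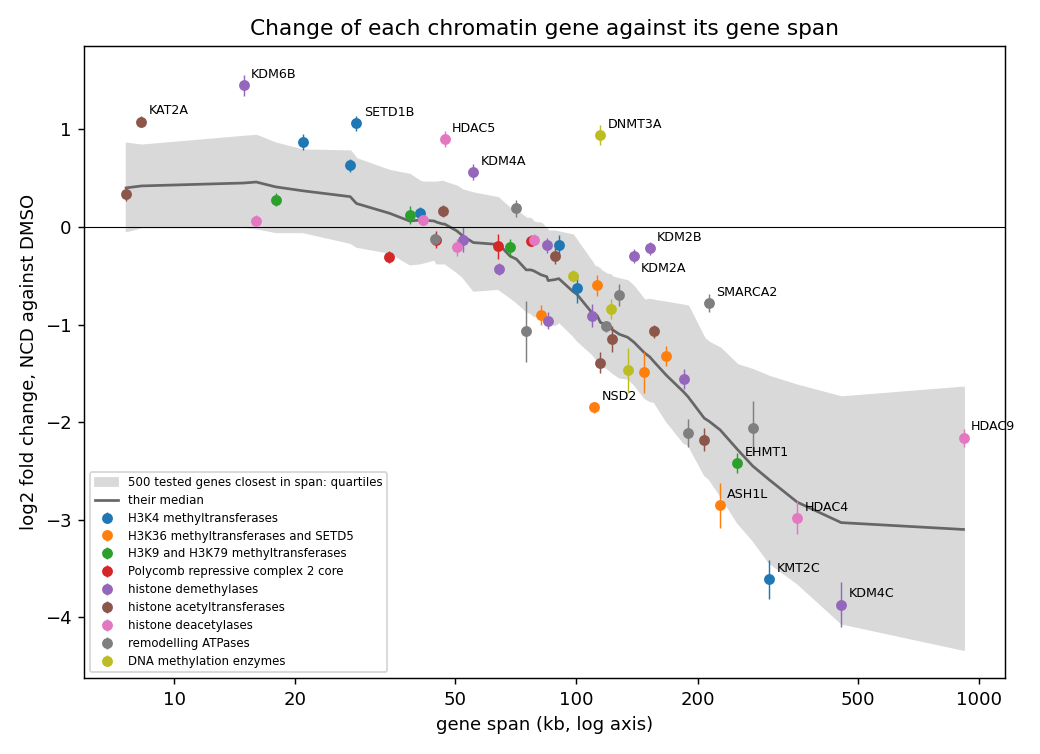
Log2 fold change with NCD against DMSO (y axis, bars are standard errors) of each chromatin gene against its gene span in kb (log axis). The grey line and band are the median and quartiles of the 500 tested genes closest in span. Points follow the line down from KAT5 at 7.6 kb to KDM4C at 454.8 kb, with DNMT3A, SMARCA2, KDM2B, KDM6B, KDM2A and HDAC9, the longest at 915.5 kb, among those above it and KMT2C and NSD2 furthest below.

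The change of each member was compared with the median of the 500 tested genes closest to it in span, members left out. The median difference over the 59 members was 0.06. Of these, 43 lay within the quartiles of their neighbours, 11 lay above the upper quartile and 5 below the lower one. DNMT3A departed most: at 114.7 kb its neighbours had a median of -0.98, so that DNMT3A lay 1.92 above them. It was the 1 member of at least 100 kb that was higher past the test, as were 4.78% of all tested genes that long. SMARCA2 lay 1.21 above its neighbours, KDM2B 1.11, KDM6B 0.99, HDAC9 0.94, KDM2A 0.88, HDAC5 0.87 and SETD1B 0.82. In the other direction KMT2C lay at -1.02 against its neighbours, NSD2 at -0.96, KDM4C at -0.84 and ASH1L at -0.77.

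The counts are per gene and do not separate transcripts, but the annotated coding transcripts of these genes differ in span. Those of DNMT3A span 18.1 to 114.7 kb, those of SMARCA2 26.8 to 178.4 kb, those of KDM2A 16.3 to 138.4 kb, those of KDM2B 21.3 to 151.9 kb and those of HDAC9 157.6 to 580 kb. Other members above their neighbours vary little, with 13.7 to 14.9 kb for KDM6B, 45.0 to 46.9 kb for HDAC5 and 25.5 to 28.4 kb for SETD1B. Members near their neighbours also have short coding transcripts. Those of KAT6B span 19.4 to 207.3 kb (difference -0.22), those of EHMT1 2.6 to 217.2 kb (-0.14) and those of KAT6A 6.1 to 122.5 kb (-0.10). The coding transcripts of KMT2C all span 301.1 kb, while those of NSD2, which lay below its neighbours, span 11.5 to 107.5 kb. Which transcripts were used was not measured here.

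Related genes of unlike span were compared in 31 pairs, which share members among them. In 21 pairs the longer gene had the lower log2 fold change and in 10 the shorter one. Among the 14 pairs whose spans differ at least 2 times, the longer gene was the lower in 13, with a median difference of -2.39 on the log2 scale. The widest were KDM4C against KDM4A (-4.43), HDAC4 against HDAC5 (-3.88), KMT2C against KMT2D (-3.76), HDAC9 against HDAC5 (-3.05) and HDAC4 against HDAC7 (-2.77). The exception was HDAC9, the longest member at 915.5 kb, which fell less than HDAC4 at 353.5 kb, by 0.82. In pairs of like span the order went either way, as in NSD3 and NSD2 (112.6 and 110.8 kb), where NSD2 was lower by 1.24.

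**Figure D4:**
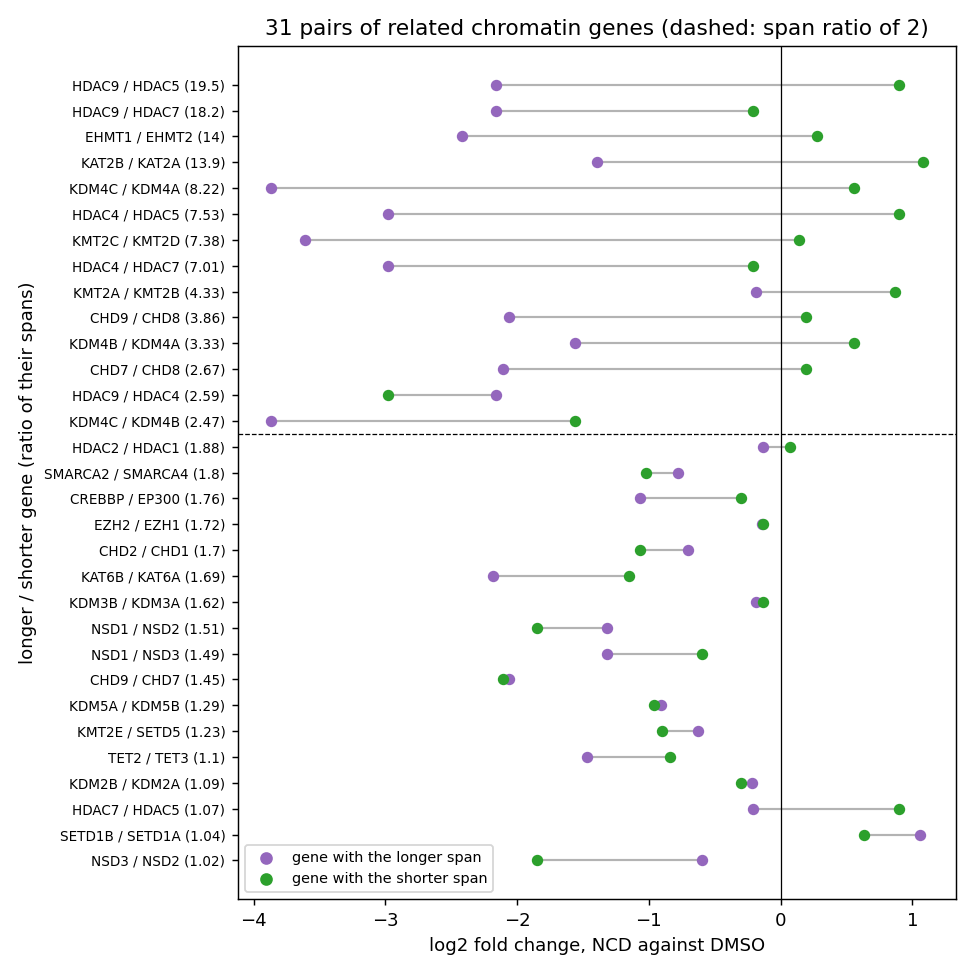
Log2 fold change with NCD against DMSO (x axis) of both genes of 31 related pairs, the gene with the longer span in purple and the shorter in green, ordered by the ratio of their spans, which stands in brackets. Above the dashed line, at span ratios of at least 2, the purple point lies left of the green one in 13 of 14 pairs.

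The share of each relative within its family was taken in each library, as counts per length of the longest annotated coding transcript. Such shares do not depend on how libraries are scaled, and show unequal change rather than which gene moved. KMT2C made up 34.1, 41.6 and 37.4% of KMT2C and KMT2D with DMSO and 3.76, 3.70 and 5.37% with NCD. EHMT1 made up 38.3 ± 1.82% (SD, n = 3) of the EHMT1 and EHMT2 pair with DMSO and 8.68 ± 0.613% (SD, n = 3) with NCD. With NCD the shorter gene, KMT2D or EHMT2, made up 95.7% and 91.3% of its pair.

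KAT2A went from 59.4 ± 2.24% to 89.0 ± 1.44% of KAT2A and KAT2B (SD, n = 3 in each group). KDM4A went from 51.2 ± 1.88% to 86.3 ± 0.709% of the KDM4 family, in which KDM4C went from 17 ± 1.14% to 1.35 ± 0.536%. Among the class IIa deacetylases HDAC9 went from 35.3 ± 1.11% to 10.5 ± 0.964%, and HDAC5 from 15.1 ± 1.03% to 37.2 ± 2.47%. CHD8 went from 58.1 ± 3.57% to 86.9 ± 2.81% of CHD7, CHD8 and CHD9. In all of these the libraries of the groups did not overlap.

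Elsewhere a longer gene gained share, also without overlap. NSD1 went from 9.25 ± 0.571% to 10.8 ± 0.834% and NSD3 from 13.9 ± 0.463% to 26.7 ± 2.55% of the NSD family, in which NSD2 is the shortest gene. SMARCA2 went from 36.4 ± 0.731% to 40.3 ± 2.84% of SMARCA2 and SMARCA4, and KMT2E from 21.9 ± 1.93% to 25.3 ± 0.915% of KMT2E and SETD5 (SD, n = 3 in each group).

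The shares of some families overlapped between the groups. EZH2 made up 85.6 ± 0.782% of EZH1 and EZH2 with DMSO and 85.4 ± 0.531% with NCD. KDM2A made up 75.6 ± 1.90% and 74.7 ± 0.184% of its pair, KDM5A 47.3 ± 1.29% and 48.0 ± 3.30%, and KDM3A 52.3 ± 2.09% and 53.3 ± 2.75% (SD, n = 3 in each group). The shares of CHD1 and CHD2 also overlapped, with the widest spread of all families.

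**Figure D5:**
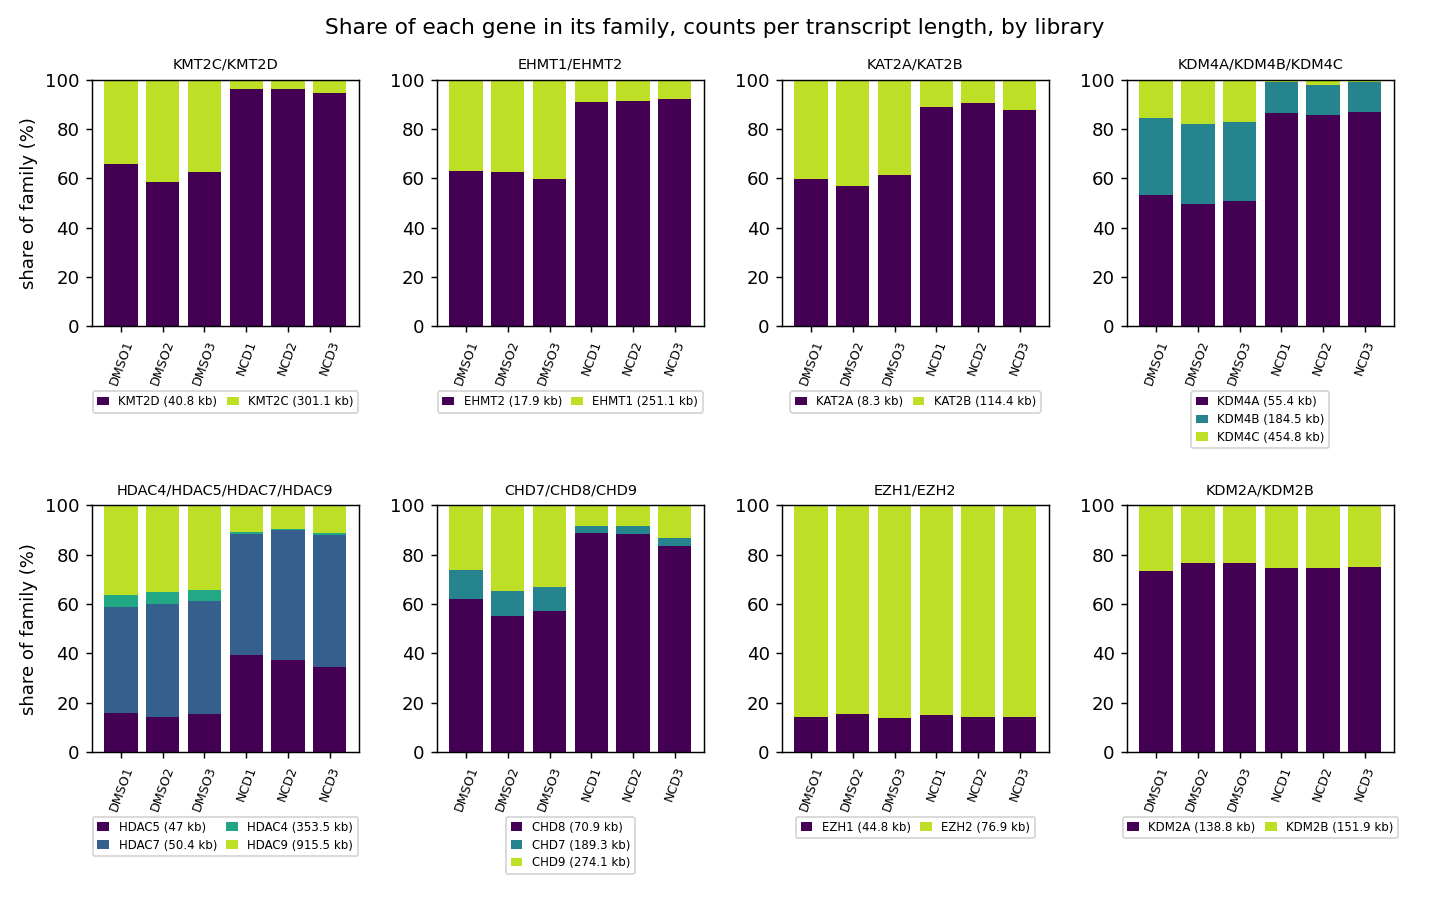
Share (%) of each gene in its family by library, from counts per length of the longest coding transcript, for 8 families with the shortest gene span at the bottom of each bar. The shorter genes take most of the KMT2C, EHMT, KAT2, KDM4 and CHD7 families in the 3 NCD libraries, HDAC5 and HDAC7 gain together, and the EZH and KDM2 shares overlap between groups.

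The other genes of the same pathways, a list of 212 enzymes, complex subunits and readers, moved in both directions. Of the 210 that could be tested, 51 (24.3%) were differentially expressed and lower, against 17.4% of all tested genes, and 15 (7.14%) were higher, against 13.5%. Their median log2 fold change was -0.09. Bromodomain readers, with a median span of 118 kb, had 12 of 23 lower and 1 higher, while the 13 COMPASS subunits, which assist the H3K4 methyltransferases, stayed between log2 fold changes of -0.66 and 0.89. Of the other deacetylases and sirtuins, with a median span of 21.5 kb, 4 of 11 were higher and 1 lower.

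The largest fall among these partners was that of SMYD3, a methyltransferase whose gene spans 758 kb, from 29.6 ± 1.87 to 0.450 ± 0.127 CPM (SD, n = 3). Among called genes whose mean reached 5 CPM, the largest falls of the other lists, as log2 fold changes, were those of the SWI/SNF subunit ARID1B (-3.57), the NCoR subunit TBL1X (-3.40), the remodelling ATPase ATRX (-3.26), the Polycomb partner SCMH1 (-3.23), the coactivator NCOA2 (-3.17) and the reader BAZ2B (-2.89). HDAC8 followed at -2.25, KDM6A, the relative of KDM6B that also removes H3K27 methylation, at -1.83, and ZBTB38, which binds methylated DNA, at -1.40. TET1, in the same list as ZBTB38 but at a mean of 1.11 CPM, had -1.76 and was named after its value was seen. The genes at 5 CPM or more named here as falling span 125.6 kb (ZBTB38) to 758 kb (SMYD3). The rises named here were led by KMT5C, which trimethylates histone H4 at lysine 20, at 2.19, with a gene of 8.3 kb. BRPF3, a scaffold of MYST acetyltransferases, rose by 1.46, the deacetylase SIRT1 by 1.33, the SWI/SNF subunit DPF2 by 1.31, the DNA glycosylase MBD4 by 1.29 and GPS2 by 1.18. GPS2 overlaps EIF5A, which had up to 14983 counts, so its value is uncertain. In each of these partners the NCD and DMSO libraries did not overlap. They were named for their values, so this adds no support. Of all tested genes, 35.3% were lower and 37.2% higher without overlap.

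Promoters were read from RefSeq (GRCh38.p14), as 250 bases before to 50 after the start, for 53 of the 59 members. They were rich in G and C, with a median of 69.0% and 30 CpG dinucleotides, against 58.7% and 14 over 35116 promoters. Counting both strands, TATAAA was in 0 of the 53, against 11.5% of all promoters of that length, GGGCGG (the SP1 box) in 69.8% against 45.0%, CACGTG (E-box) in 18.9% against 7.26% and CCGGAA (ETS) in 20.8% against 17.2%. CCAAT was in 26.4% against 34.6%, TGACGT (CRE) in 5.66% against 7.98% and GCGCATG (NRF1) in 5.66% against 4.43%. A match is a description of letters and not a bound site. Of the 17 promoters of members called lower, 14 held GGGCGG, and of the 2 available from members called higher, 1 did.

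Promoters are shown for the pair of members that rose most and the pair that fell most, with the matches to these motifs in capitals. They are KDM6B (chr17:7833967-7834266, plus strand), KAT2A (chr17:42121318-42121617, minus strand), KMT2C (chr7:152435954-152436253, minus strand) and KDM4C (chr9:6757723-6758022, plus strand), each written 5′ to 3′ on the strand of the gene.
KDM6B: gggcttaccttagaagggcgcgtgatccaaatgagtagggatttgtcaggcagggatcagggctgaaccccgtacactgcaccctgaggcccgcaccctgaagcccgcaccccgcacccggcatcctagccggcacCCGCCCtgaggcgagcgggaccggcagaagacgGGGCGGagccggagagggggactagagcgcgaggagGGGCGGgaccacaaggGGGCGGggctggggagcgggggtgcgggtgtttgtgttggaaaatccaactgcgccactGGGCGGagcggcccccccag
KAT2A: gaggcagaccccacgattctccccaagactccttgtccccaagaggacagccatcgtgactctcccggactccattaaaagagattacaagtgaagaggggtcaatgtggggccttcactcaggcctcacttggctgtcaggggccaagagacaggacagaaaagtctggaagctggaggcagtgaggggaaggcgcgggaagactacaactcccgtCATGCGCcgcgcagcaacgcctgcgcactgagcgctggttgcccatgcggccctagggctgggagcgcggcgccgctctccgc
KMT2C: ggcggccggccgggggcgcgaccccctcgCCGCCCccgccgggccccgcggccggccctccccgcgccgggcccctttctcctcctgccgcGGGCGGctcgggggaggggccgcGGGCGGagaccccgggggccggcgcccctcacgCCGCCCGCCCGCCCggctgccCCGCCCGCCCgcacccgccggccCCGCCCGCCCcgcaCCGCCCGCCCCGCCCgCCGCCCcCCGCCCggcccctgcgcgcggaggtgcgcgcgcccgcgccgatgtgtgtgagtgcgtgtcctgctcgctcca
KDM4C: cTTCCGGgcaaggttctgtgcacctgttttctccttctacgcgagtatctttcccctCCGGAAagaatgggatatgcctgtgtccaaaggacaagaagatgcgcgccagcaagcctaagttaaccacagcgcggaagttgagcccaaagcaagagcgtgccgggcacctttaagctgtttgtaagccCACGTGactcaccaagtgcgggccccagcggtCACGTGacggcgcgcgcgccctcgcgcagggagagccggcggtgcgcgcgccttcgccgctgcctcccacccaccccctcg
The RefSeq start of KDM6B lies 5.7 kb and that of KDM4C 37.1 kb from the outermost start in GENCODE release 29, while those of KAT2A and KMT2C coincide. The KMT2C window was 88.7% G and C and held 15 overlapping or separate GGGCGG matches on both strands, against 5 in KDM6B. The KAT2A window, at 62.0%, held 1 GCGCATG match, and the KDM4C window held 2 CACGTG and 2 CCGGAA matches. The window of KMT2C, among the deepest falls, and that of KDM6B, the largest rise, thus both held GGGCGG.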

How the data were processed

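RNA sequencing of MDA-MB-231 cells was analysed for 3 DMSO and 3 NCD libraries. The authors aligned reads with HISAT2 and deposited expected counts per Ensembl gene from RSEM, without normalization; the submitters' processing notes name GRCh38 and hg38, and versions, annotation release and strandedness are not given in the sources used here. The authors' own calls came from DESeq2 and are not used here. In each file 25 lines of stray text with no count were skipped.

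Expected counts were rounded and tested in edgeR 4.0.16 in R 4.3.3 (filterByExpr, TMM, glmQLFit, glmQLFTest, Benjamini-Hochberg adjustment over 15295 tested genes). Every adjusted p is from this test unless another setting is named, and standard errors come from the fold change and its F statistic. No pair of libraries of a group was alike within sampling noise (chi-square per degree of freedom of at least 2.05). On simulated counts over 15007 genes, 178 of 195 changed genes were recovered, with 1 false call. At this depth genes of few counts are imprecise, and counts carry sampling error beside the replicate spread.

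Span, transcripts and overlaps came from GENCODE release 29, which may not be the authors' annotation. It held 58228 of the identifiers and at least 99.44% of counts. The members and lists were chosen with earlier results of these data known. Values per library are given for members differentially expressed and higher, for the 2 largest falls and the most positive change of each class past adjusted p, and for the 4 smallest changes at 5 CPM or more. Values of EZH2 and CHD1 per library, group means of KDM4A and DNMT1, and values of pairs beyond the 5 widest were added after values were seen. Partner genes are the highest and lowest called per list at that level, of which 1 is not reported here. Alternatives were DESeq2 1.42.0, limma-voom (limma 3.58.1), library totals, median-of-ratios size factors, no filter, at least 10 counts in every library, a block for the replicate number, and leaving out each library in turn. Tables and figures used pandas 2.3.3, numpy 2.4.6, scipy 1.17.1 and matplotlib 3.10.9.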

Additional observations from a re-analysis of the deposited data

How the results depend on the processing

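Of the 22 differentially expressed members, 17 kept the call under all 14 settings, and 5 lost it under at least 1. With library totals, 6 members were called higher against 3, and 27 partner genes against 15; CREBBP (-0.87), KAT6A (-0.95), SMARCA4 (-0.83) and CHD1 (-0.87) lost the call, and KMT2B (1.06), HDAC5 (1.09) and DNMT3A (1.14) gained it. With that scaling 8 members near 0 changed sign, and none passed the test there: KMT2A 0.003, EZH1 0.07, EZH2 0.05, SUZ12 0.002, KDM3A 0.06, KDM3B 0.003, HDAC2 0.07 and CHD4 0.07. This scaling moved the share of higher among called genes from 43.7% to 56.2%.

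Leaving out each library in turn gave 17 to 22 members called lower and 2 or 3 higher. CHD1 lost its call in 3 of these fits, SMARCA4 without DMSO replicate 2 (-0.99) and SETD1B without DMSO replicate 3 (0.98). SETD5, KDM5A and KDM5B gained it in some of these fits, at -1.0 to -1.06. Without the fold threshold, 33 members were lower in the main fit, 29 with library totals and 40 without NCD replicate 3. Median-of-ratios size factors gave 38. Members higher numbered 11 in the main fit, 9 without DMSO replicate 3 and 16 with library totals. DOT1L, KMT2D, HDAC7, HDAC2 and KDM3B lay just outside the edgeR test in the main fit, at adjusted p of 0.055 to 0.0674.

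The median difference of members from the genes closest in span was near 0 and changed sign, to -0.02 without the low-count filter and -0.07 with transcript length in place of span; the cause was not tested. The Spearman correlation of the members' changes with transcript length was -0.385, against -0.863 with span. Libraries of like number were not treated as pairs, because their departures from the group means had correlations of 0.444, -0.416 and 0.015. With the replicate block 19 members were lower and 3 higher, and KDM2B (adjusted p = 0.0602) and KAT7 (adjusted p = 0.0849) no longer passed the edgeR test.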
